A study of Mus musculus with 51 samples.

Results

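Genes of the MHC class II antigen presentation pathway were followed through postnatal XY mouse gonads and isolated Sertoli cells that differ in the sex-determining transcription factor gene *Dmrt1*. The 8 genes, of 55401 in the count table, are *H2-Aa*, *H2-Ab1*, *H2-Eb1*, *Cd74*, *Ciita*, *H2-DMa*, *H2-DMb1* and *H2-DMb2*. They were chosen by gene name for their role in this pathway, with earlier results of the same libraries in view, so every p given for them places the gene within a fit of all genes and is not independent evidence. Messenger RNA was counted in 30 libraries, 3 in each of 10 groups, all from mice of a mixed 129Sv and C57Bl/6J background. At 3 days after birth (P3), the genotypes of whole XY gonads were *Dmrt1* R111G/-, *Dmrt1* R111G/+, *Dmrt1*-/- and *Dmrt1*+/-, where R111G is an edited allele that changes 1 amino acid of DMRT1 and descends from 1 founder. At 28 days (P28), they were *Dmrt1* R111G/+, *Dmrt1*-/-, *Dmrt1*+/- and wild type (*Dmrt1*+/+). At 7 days (P7), Sertoli cells with a floxed *Dmrt1* allele deleted by Dhh-Cre, a driver active in Sertoli cells, were obtained. Tubules of a pair of mice were pooled, and Thy1 and c-Kit cells were removed on beads and not by sorting. A CAG-Stopflox-tdTomato reporter served to check purity. The deleted cells were compared with Cre-carrying control cells, whose labels give both +/+ and f/+ and which were taken as 1 group. The study describes this control as heterozygous for *Dmrt1*. Library totals ran from 5043838 to 12792811 counts. The level of *Dmrt1* followed the labels, at 2.10 to 3.40 CPM (counts relative to the scaled library total) in P3 *Dmrt1*-/- gonads against 53.3 to 80.4 in *Dmrt1*+/- gonads, at 0.172 to 0.460 in P28 *Dmrt1*-/- gonads against 31.4 to 64.1 in *Dmrt1*+/- testes, and at 20.7 to 35.3 in P7 *Dmrt1*-/- Sertoli cells against 164 to 251 in control cells. A count per gene also holds reads from exons outside the deleted part. Markers of 10 germ cell genes summed to 297 to 499 CPM in P7 control and 173 to 449 in P7 *Dmrt1*-/- libraries. The source of the *Dmrt1* counts left in P7 *Dmrt1*-/- cells was not tested.

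MHC class II molecules are pairs of an alpha and a beta chain that display peptides from endosomes to CD4 T cells. They are made mainly by dendritic cells, macrophages and B cells, and other cells can make them under interferon gamma. The transactivator encoded by *Ciita* has no DNA-binding domain of its own and is recruited by the factors RFX, CREB and NF-Y, which sit on the X and Y boxes of class II promoters. The invariant chain escorts new class II dimers to endosomes, where the DM heterodimer exchanges the last piece of that chain for a peptide. Most of these genes lie together in the MHC region on chromosome 17.

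Promoters of 3 chromosome 17 members are given here because they hold letters of the X or Y boxes described above. RefSeq promoter windows of GRCm38.p6, which run from 250 bases before to 50 after the annotated start, were at hand for 5 of the 8 members (*H2-Aa*, *H2-Eb1*, *H2-DMa*, *H2-DMb1* and *H2-DMb2*). Searched on both strands were the Y box letters TGATTGG, the letters AACNGATG from the X1 part of the X box, and TGACGTCA, an X2 or cyclic AMP response element, all picked with these sequences in view and none overlapping another. Bases 130 to 31 before the start are printed 5′ to 3′ on the gene's strand, with the matched letters in capitals. They lie at chr17:34287854-34287953 (minus strand), chr17:34305737-34305836 (plus strand) and chr17:34145119-34145218 (plus strand).
H2-Aa: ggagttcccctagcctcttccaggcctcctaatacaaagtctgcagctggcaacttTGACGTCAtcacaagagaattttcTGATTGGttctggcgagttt
H2-Eb1: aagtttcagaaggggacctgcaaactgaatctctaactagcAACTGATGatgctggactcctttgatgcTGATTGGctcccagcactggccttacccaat
H2-DMb2: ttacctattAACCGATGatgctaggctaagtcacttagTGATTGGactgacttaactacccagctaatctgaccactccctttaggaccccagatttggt
The Y box letters began 50 bases before the start in *H2-Aa*, 61 in *H2-Eb1*, 63 in *H2-DMb1* and 92 in *H2-DMb2*. The X1 letters began 89, 92 and 121 bases before the start in *H2-Eb1*, *H2-DMb1* and *H2-DMb2*, with 20, 21 and 21 bases between them and the Y box, and the X2 letters of *H2-Aa* began at 74 bases. Of all 32851 promoters in the RefSeq set, 7.82% held the Y box letters, 2.32% the X1 letters and 1.79% the X2 letters. The X1 letters followed by a Y box that began 18 to 40 bases further on stood in 5 promoters (0.0152%), those of *H2-Eb1*, *H2-DMb1*, *H2-DMb2*, the related beta chain gene *H2-Eb2* and *BC051142*. The windows of *H2-DMa* held none of these letters. A match is a stretch of letters, and binding there was not measured.

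In GENCODE M21, which uses GRCm38 as the study's files do, the chain genes *H2-Ab1* (34257689 to 34269419), *H2-Aa* (34282744 to 34287823) and *H2-Eb1* (34305867 to 34316674) and the DM genes *H2-DMa* (34119541 to 34139101), *H2-DMb2* (34143307 to 34151555) and *H2-DMb1* (34153072 to 34160230) lie on chromosome 17. *Ciita* lies on chromosome 16 from 10480059 to 10528418 and *Cd74*, which encodes the invariant chain, on chromosome 18 from 60803848 to 60812652. All 8 are protein-coding genes, and values below sum reads over their exons. Reads were counted strand by strand. *H2-DMb1* and *H2-DMb2* are close copies, so that reads that fit both may be split or lost, and their values are uncertain for that reason.

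The clearest difference was in isolated Sertoli cells at P7, where the chain genes, the invariant chain gene and the transactivator gene stood 7.83 to 15.2 times higher in *Dmrt1*-/- than in control cells. *H2-Aa*, the alpha chain of I-A, was at 2.41, 2.21 and 2.01 CPM in the control libraries and at 23.5, 16.9 and 12.1 in the *Dmrt1*-/- libraries (means 2.21 ± 0.199 and 17.5 ± 5.77, SD, n = 3 each). Every *Dmrt1*-/- library lay above every control library, and the log2 fold change was 2.97 (standard error, SE, 0.324, adjusted p = 0.0022 by edgeR's quasi-likelihood test, as for all adjusted p values here). *H2-Ab1*, the I-A beta chain, was at 2.41, 1.53 and 0.537 CPM in control cells and 23.0, 12.9 and 16.3 in *Dmrt1*-/- cells. This was a log2 fold change of 3.51 (SE 0.475, adjusted p = 0.00584). *H2-Eb1*, the I-E beta chain, stood at 1.84, 1.87 and 0.805 CPM in control cells and at 23.0, 9.83 and 9.95 in *Dmrt1*-/- cells (log2 change 3.23, SE 0.472 and adjusted p = 0.00778).

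*Cd74* had the highest fold change of the members at P7. Its level was 1.38, 0.850 and 0.671 CPM in control cells and 16.2, 12.2 and 17.2 in *Dmrt1*-/- cells (log2 change 3.93, SE 0.367 and adjusted p = 0.00146). *Ciita* moved with the genes it controls, from 1.26, 0.340 and 0.805 CPM to 11.7, 8.92 and 8.42 (log2 change 3.51, SE 0.443 and adjusted p = 0.00414). *H2-DMa*, the DM alpha chain, changed least, from 1.61, 1.02 and 0.805 CPM to 6.65, 4.01 and 3.25 (log2 change 1.99, SE 0.432 and adjusted p = 0.0339). The call of *H2-DMa* was lost without any 1 of the 6 libraries, and the 5 other calls were kept. *H2-DMb1*, a DM beta chain, had 4, 1 and 5 counts in control cells and 41, 5 and 9 in *Dmrt1*-/- cells, overlapped at 5 counts though not in CPM, and was too low to be tested. *H2-DMb2* had 0 counts in all 6 P7 libraries. All 6 members tested rose, against 2.56% of 14013 genes called higher in this comparison. Of these 6, *Cd74* and *Ciita* reached the filter on low counts in 0 control libraries and *H2-Aa* alone in all 3, so that the members other than *H2-Aa* passed it through the *Dmrt1*-/- libraries and the count of 6 is a description. Scaling by the endothelial, myoid and stromal lists, which are low in these cells, left 0 members called, with log2 fold changes of 0.98 to 2.89 and adjusted p = 0.318 to 0.502, all still above 0, while the median of all genes moved to -1.08. The 6 tested members and *H2-DMb1* had groups that did not overlap, where 14.1% of the genes tested lay with all *Dmrt1*-/- libraries above all control libraries. The median log2 fold change was 3.37 over the members tested and -0.01 over all genes.

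Markers of leukocytes were near 0 in these Sertoli cells. *Ptprc*, the pan-leukocyte antigen CD45, had 0, 2 and 4 counts in control and 1, 1 and 1 in *Dmrt1*-/- libraries, *Csf1r*, the macrophage growth factor receptor, had 0, 1 and 0 and then 0, 0 and 2, and *Adgre1* (F4/80) 0, 0 and 0 and then 0, 3 and 0. *Fcgr1* and the dendritic cell gene *Cd209a* had 0 counts in all 6 libraries. The summed level of 15 macrophage markers was 29.4 to 40.5 CPM in control and 24 to 32.3 in *Dmrt1*-/- cells, most of it from *Mertk*, *Mrc1* and *Aif1*. Some macrophage genes still had more counts in *Dmrt1*-/- cells, such as the complement genes *C1qa* (0, 0 and 0 against 4, 3 and 5 counts) and *C1qb* (0, 1 and 1 against 2, 8 and 2), and lysozyme *Lyz2* (2, 1 and 0 against 3, 10 and 11). Of 11 dendritic cell markers, the summed level was 110 to 127 CPM in control and 81.2 to 88.0 in *Dmrt1*-/- cells, nearly all from *Zbtb46*. Of the 6 B cell markers the sum was 1.70 to 5.90 and 2.68 to 2.94 CPM. Markers of 12 endothelial genes summed to 14.9 to 22.1 CPM in control and 33.8 to 62.8 in *Dmrt1*-/- cells, and those of 9 stromal genes to 31.5 to 261 and 126 to 433. The 6 Leydig markers summed to 36.9 to 76.0 and 121 to 212 CPM. Of 6 endothelial, 8 stromal and 3 Leydig markers tested, 1, 0 and 1 were called higher, beside 2.56% of all genes, and 0 lower. Of 9 germ cell markers tested 0 were called. The part of immune, endothelial, stromal, Leydig or germ cells in the class II counts was not tested beyond these values. In any bulk sample more cells of a type and more RNA per cell cannot be told apart. The isolated cells carried the Sertoli genes *Sox9*, *Amh* and *Clu* in both groups. Of 10 Sertoli markers tested 3 fell in *Dmrt1*-/- cells, *Cst9*, *Clu* and *Cldn11*, and 0 rose (median log2 fold change -0.33). The share of all genes called lower at P7 is not given here. Of 6 granulosa markers tested 1 rose, the transcription factor gene *Foxl2* (log2 change 6.28, SE 0.649 and adjusted p = 0.00189), and 0 fell (median -0.54).

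No listed gene of the wider pathway passed the test at P7. Of 7 genes for the promoter-bound factors (*Rfx5*, *Rfxap*, *Rfxank*, *Creb1*, *Nfya*, *Nfyb* and *Nfyc*), all were tested and 0 changed (median log2 fold change 0.03). Of 9 genes of endosomal processing 8 were tested and 0 changed. *Ctss*, the cathepsin that trims the invariant chain in antigen-presenting cells, had 0, 0 and 0 counts in control and 0, 0 and 1 in *Dmrt1*-/- cells, while *Ctsl* stood at 773 to 1255 and 435 to 712 CPM. Of 7 genes of costimulation and surface turnover 2 were tested and 0 changed, and *Cd86*, a costimulatory ligand, had 4 counts over the control libraries and 0 over the *Dmrt1*-/- libraries. Of 14 genes of the interferon gamma pathway 12 were tested and 0 passed (median -0.40), and *Ifng* itself had 0 counts in all 6 libraries. Without a call, *Gbp2* (1.19 to 3.90 and 4.59 to 6.37 CPM) and *Irgm1* (2.42 to 4.48 and 6.12 to 8.74) were higher in every *Dmrt1*-/- library. Of all genes tested 14.1% did so. *Ifngr2*, *Irf1* (240 to 331 and 158 to 210 CPM), *Irf8* and *Igtp* were lower in every *Dmrt1*-/- library than in every control library. The share of all genes that lay lower in this way was not calculated, so these falls are a description. The other class II genes were near 0, with at most 1 count in a library for *H2-Oa*, *H2-Ob* and *H2-Eb2* and 0 in all 30 libraries for *H2-Ea*, the I-E alpha chain.

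**Figure D1:**
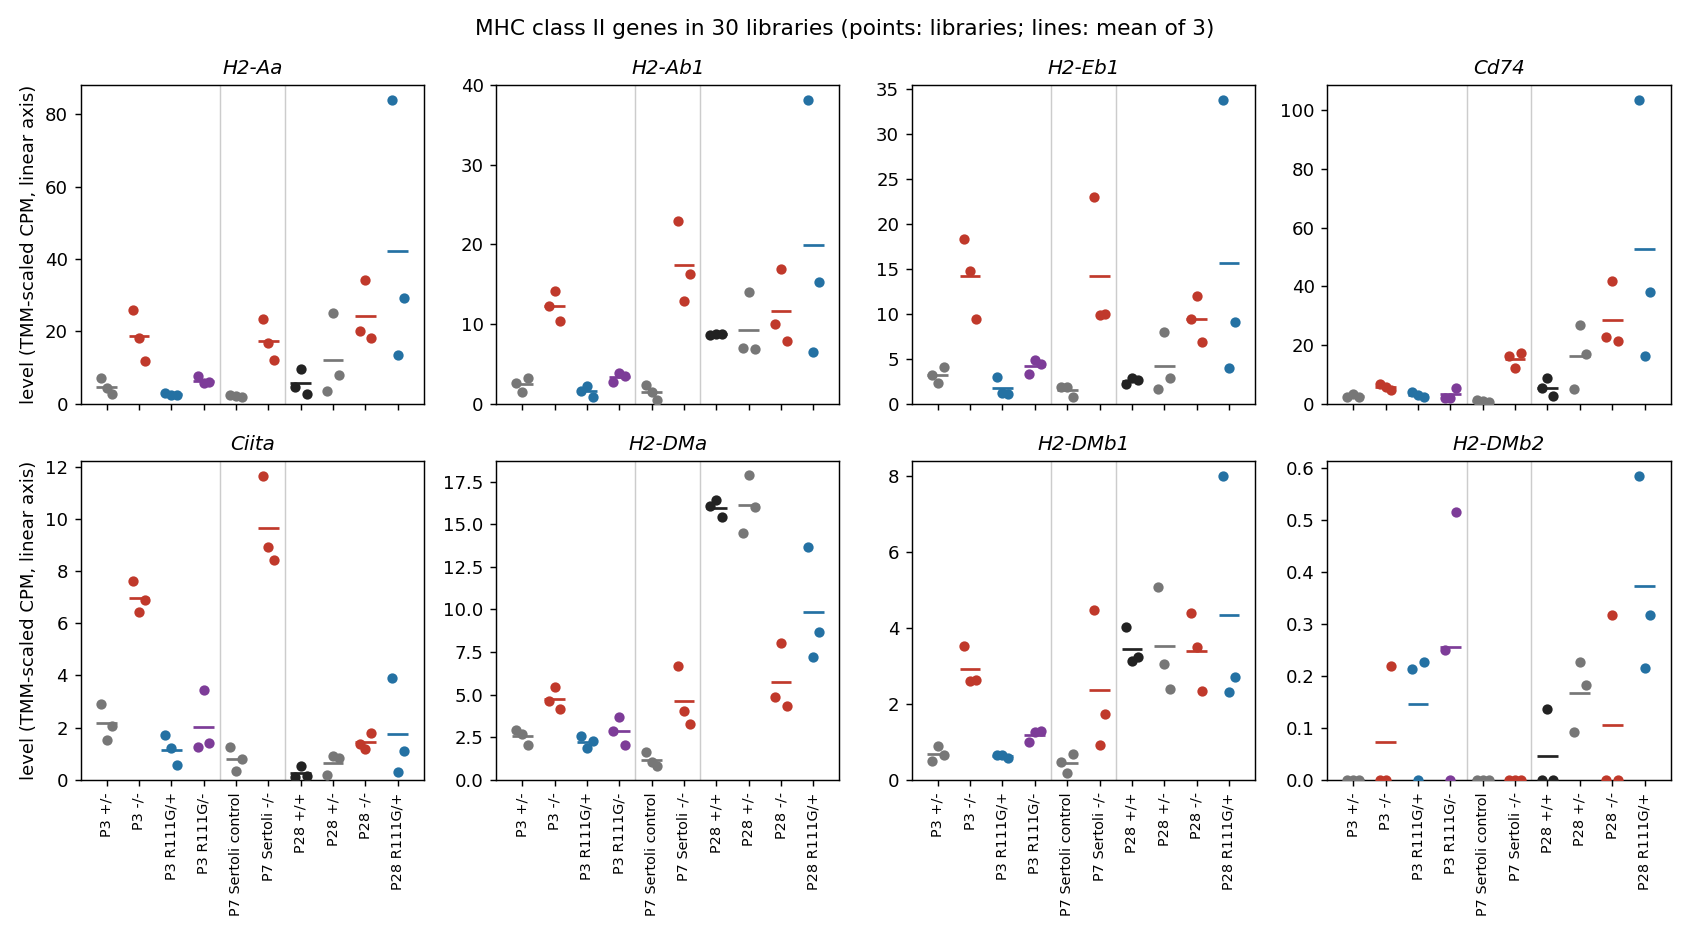
Level of each of the 8 genes in CPM (TMM-scaled, linear axis) for the 30 libraries in 10 groups, with points for libraries and lines for the mean of 3. The P7 *Dmrt1*-/- Sertoli cells lie above the control cells in 7 of the 8 panels (14.1% of all genes tested did so), and P28 *Dmrt1* R111G/+ replicate 1 stands apart in most panels.

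The same chain genes were higher in whole *Dmrt1*-/- gonads at P3 than in *Dmrt1*+/- gonads. *H2-Aa* stood at 7.17, 4.46 and 2.71 CPM in *Dmrt1*+/- gonads and at 26.0, 18.1 and 12 in *Dmrt1*-/- gonads (log2 change 1.92, SE 0.325 and adjusted p = 0.0127). *H2-Ab1* was at 2.67, 1.53 and 3.23 CPM and at 12.2, 14.1 and 10.4 (log2 change 2.26, SE 0.32 and adjusted p = 0.00452). *H2-Eb1* was at 3.16, 2.29 and 4.13 CPM and at 18.4, 14.7 and 9.43 (log2 change 2.11, SE 0.362 and adjusted p = 0.0146). *H2-DMb1* rose too, from 0.486, 0.892 and 0.646 to 3.51, 2.60 and 2.63 CPM (log2 change 2.05, SE 0.341 and adjusted p = 0.0118), and reached the filter on low counts in *Dmrt1*-/- libraries alone. In all 4 genes the groups did not overlap, where 8.45% of the genes tested lay with all *Dmrt1*-/- libraries above all *Dmrt1*+/- libraries.

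*Ciita*, *Cd74* and *H2-DMa* also had groups that did not overlap at P3, but did not pass the test. *Ciita* was at 2.91, 1.53 and 2.07 CPM in *Dmrt1*+/- and 7.62, 6.44 and 6.91 in *Dmrt1*-/- gonads (log2 fold change 1.64, adjusted p = 0.0975). *Cd74* was at 2.19, 3.19 and 2.33 and at 6.89, 5.82 and 4.61 (log2 fold change 1.13, adjusted p = 0.304), and *H2-DMa* at 2.91, 2.68 and 2.07 and at 4.6, 5.45 and 4.17 (log2 fold change 0.85, adjusted p = 0.28). *H2-DMb2* had 0 counts in all *Dmrt1*+/- libraries and in 2 of the 3 *Dmrt1*-/- libraries. So 4 of 7 members tested rose, beside 0.202% of 15837 genes called higher. Without any 1 of the *Dmrt1*+/- libraries 2 were called, without *Dmrt1*-/- replicate 1 the count was 1, without either of the other *Dmrt1*-/- libraries 4, and a fit of all 30 libraries called 1. No macrophage marker tested passed the test beside them. Of 15 such genes 13 were tested and 0 changed, *Csf1r* was at 10.2 to 16.1 CPM in *Dmrt1*+/- and 8.99 to 14.1 in *Dmrt1*-/- gonads, *Ptprc* at 3.04 to 3.62 and 2.72 to 2.85, and the sum of the 15 at 129 to 197 and 119 to 214 CPM. Of the 6 B cell markers and the 3 of 11 dendritic cell markers tested, 0 changed. Of the lists for promoter-bound factors, endosomal processing, costimulation and interferon gamma, 7, 9, 6 and 12 genes were tested and 0 changed.

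At P3 no chain gene was called in gonads with the R111G allele against *Dmrt1*+/- gonads. *Dmrt1* R111G/+ gonads carry a wild-type allele beside the edited one, and their *Dmrt1* level was 109 to 152 CPM against 53.3 to 80.4 in *Dmrt1*+/- gonads. With no wild-type P3 library here, allele number and the edit cannot be told apart in that comparison. In *Dmrt1* R111G/+ gonads *H2-Aa* was at 3.08, 2.51 and 2.49 CPM, *H2-Ab1* at 1.59, 2.19 and 0.906 and *H2-Eb1* at 2.97, 1.20 and 1.13, all within or under the *Dmrt1*+/- range. Their log2 fold changes against *Dmrt1*+/- were -0.88, -0.72 and -0.90 (standard errors 0.357, 0.358 and 0.405, adjusted p = 0.772, 0.898 and 0.839). In *Dmrt1* R111G/- gonads, whose only allele is the edited one, *H2-Aa* was at 7.61, 5.76 and 5.93 CPM, *H2-Ab1* at 2.74, 3.92 and 3.48 and *H2-Eb1* at 3.37, 4.84 and 4.38, with log2 fold changes of 0.41, 0.43 and 0.37 (standard errors 0.335, 0.336 and 0.377, adjusted p = 0.863, 0.852 and 0.884). In neither comparison did edgeR call a member, where 0.0821% and 0.0379% of all genes were called higher. At an unadjusted p below 0.05 stood 2 of 7 members in *Dmrt1* R111G/+ gonads and 0 of 7 in *Dmrt1* R111G/- gonads, and DESeq2 called 0 in both.

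The mutant groups of P3 were also compared directly, a comparison added after the levels had been seen. Against *Dmrt1* R111G/+ gonads, *Dmrt1*-/- gonads had higher *H2-Eb1* (log2 fold change 3.01, adjusted p = 0.000786), *H2-Ab1* (2.98, adjusted p = 0.000312), *H2-Aa* (2.81, adjusted p = 0.000564), *Ciita* (2.60, adjusted p = 0.00431), *H2-DMb1* (2.23, adjusted p = 0.00252) and *H2-DMa* (1.11, adjusted p = 0.0471), and *Cd74* stood at 0.92 (adjusted p = 0.227). This made 6 of 7 members, beside 0.985% of all genes. The call of *H2-DMa* held in 3 of 14 alternatives, with adjusted p up to 0.166, and was lost without any 1 library, and *H2-DMb1* reached the filter in 3 *Dmrt1*-/- and 0 *Dmrt1* R111G/+ libraries. Against *Dmrt1* R111G/- gonads 1 of 7 was called, *H2-Ab1* (1.84, SE 0.309, adjusted p = 0.0277), beside 0.0568% of all genes, with *H2-Eb1* at 1.74 (adjusted p = 0.0775), *Ciita* at 1.74 (adjusted p = 0.143) and *H2-Aa* at 1.52 (adjusted p = 0.0864). The call of *H2-Ab1* was lost without any 1 of the *Dmrt1*-/- replicates or without *Dmrt1* R111G/- replicate 1 or 3, while DESeq2 called 4 members. Both comparisons share the *Dmrt1*-/- libraries with each other and with the one against *Dmrt1*+/- gonads.

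**Figure D2:**
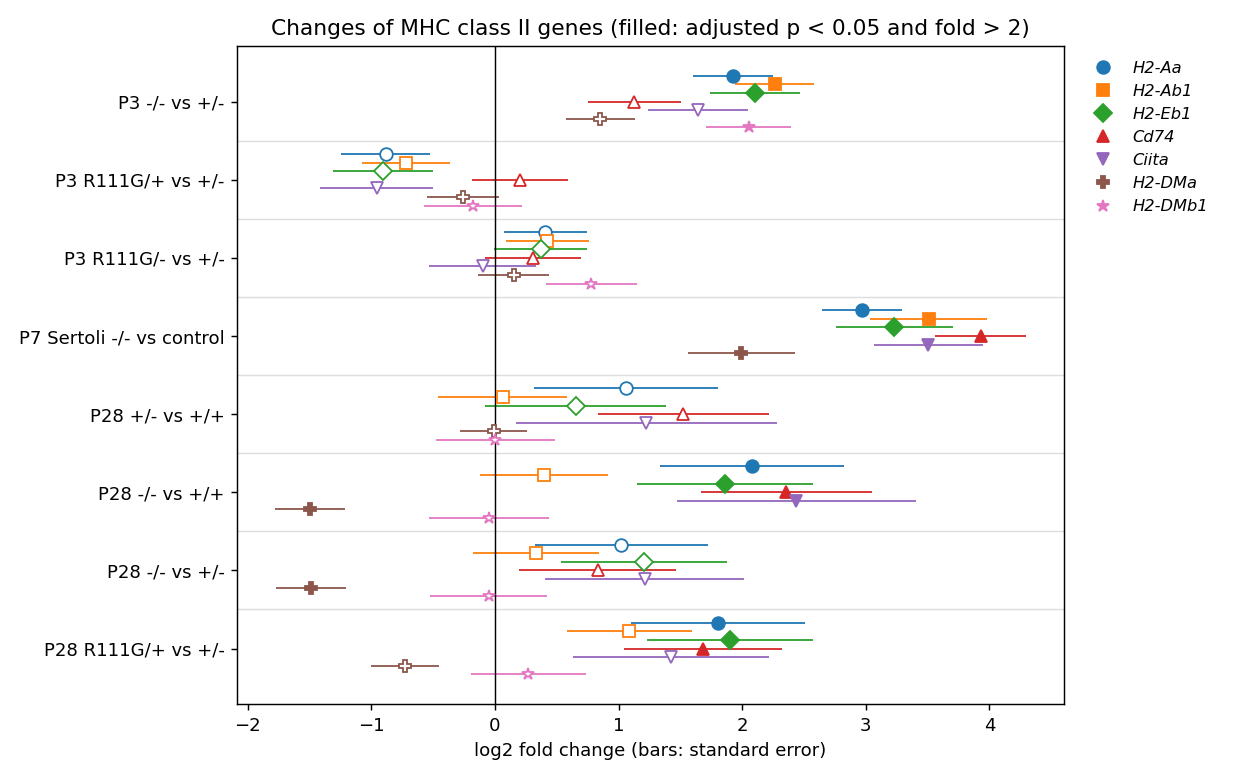
Log2 fold change of 7 members (horizontal axis, bars for the standard error) in 8 comparisons (rows), filled where the adjusted p was below 0.05 and the fold over 2; *H2-DMb2* was too low to be tested. Points lie from 1.99 to 3.93 in P7 *Dmrt1*-/- Sertoli cells, from 1.92 to 2.26 for the chain genes at P3 *Dmrt1*-/-, and from -1.5 to 2.44 for P28 *Dmrt1*-/- against wild type.

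By P28 the pattern was different, and the members no longer moved together. Against wild-type testes, *Cd74* in *Dmrt1*-/- gonads was higher, at 22.8, 42.0 and 21.3 CPM where wild-type testes had 5.39, 8.69 and 2.55 (log2 change 2.36, SE 0.693 and adjusted p = 0.00647). *H2-Aa* was at 20.2, 34.3 and 18.1 against 4.70, 9.64 and 2.68 CPM (log2 change 2.08, SE 0.745 and adjusted p = 0.0197) and *H2-Eb1* at 9.43, 12 and 6.89 against 2.18, 2.85 and 2.68 (log2 change 1.86, SE 0.713 and adjusted p = 0.0277). *Ciita* rose from 0.115, 0.543 and 0.134 to 1.38, 1.16 and 1.81 CPM (log2 change 2.44, SE 0.967 and adjusted p = 0.0325), and reached the filter in 0 wild-type libraries. *H2-Ab1*, which had been called at P3 and P7, was at 10.0, 16.9 and 7.92 CPM in *Dmrt1*-/- gonads and 8.60, 8.82 and 8.71 in wild-type testes, and its groups overlapped (log2 fold change 0.40, adjusted p = 0.491). *H2-DMa* went the other way. It was at 16.1, 16.4 and 15.4 CPM in wild-type testes and at 4.83, 8.02 and 4.31 in *Dmrt1*-/- gonads, and fell by 1.5 on the log2 scale (SE 0.286, adjusted p = 0.000274). *H2-DMb1* was at 3.12 to 4.01 and 2.33 to 4.37 CPM. This gave 4 members higher and 1 lower of 7 tested, beside 26.1% and 40.5% of 20952 genes. Other cell types moved far more in these gonads. Of 10 germ cell markers 8 fell and 1 rose (median log2 fold change -8.20), and their sum was 7008 to 9834 CPM in wild-type, 2669 to 11365 in *Dmrt1*+/-, 215 to 313 in *Dmrt1*-/- and 1016 to 1197 in *Dmrt1* R111G/+ gonads. In the same order the sum of the endothelial markers was 75.2 to 105, 96.6 to 136, 872 to 955 and 119 to 200 CPM, and that of the stromal markers 560 to 922, 826 to 1302, 5039 to 6027 and 1786 to 3327. Their part in the class II values was not tested. Without wild-type replicate 1 or 3 the count called higher was 1, and without *Dmrt1*-/- replicate 2 it was 2. Scaled by the endothelial, myoid and stromal lists it was 0, with *H2-Aa*, *H2-Ab1* and *H2-Eb1* at -0.26, -1.95 and -0.49, but this scaling moved all genes alike, with a median of all genes of -2.65 where it had been -0.31. All 12 endothelial and 9 stromal markers were themselves called higher in this comparison (median log2 fold changes 3.45 and 3.08).

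Against *Dmrt1*+/- testes 0 members were called higher in *Dmrt1*-/- gonads, beside 19.8% of all genes, and *H2-DMa* alone was lower (log2 change -1.49, SE 0.284 and adjusted p = 0.000339), beside 38.7%. The *Dmrt1*+/- libraries were spread, with *Cd74* at 5.08, 26.8 and 17.1 CPM and *H2-Aa* at 3.42, 25 and 7.97, so replicate 2 lay within the range of the *Dmrt1*-/- libraries. Without that library 2 members were called higher. Between *Dmrt1*+/- and wild-type testes edgeR called no member (0 of 7, where 0% of all genes were called higher), and 1 of 7 was at an unadjusted p below 0.05. DESeq2 also called 0, and 2 were called by edgeR with no low-count filter. Of the other class II genes *H2-Ob*, the DO beta chain, could be tested at P28, and it was higher in *Dmrt1*-/- gonads than in wild-type testes, at 1.5, 1.48 and 0.948 CPM against 0.459, 0 and 0.134 (log2 change 2.55, SE 1.04 and adjusted p = 0.036). It reached the filter in 0 wild-type libraries, and it was not called against *Dmrt1*+/- testes (0.74).

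In P28 *Dmrt1* R111G/+ gonads 3 members were higher than in *Dmrt1*+/- testes, beside 6.72% of all genes. *H2-Eb1* was at 33.8, 4.03 and 9.06 CPM (log2 change 1.90, SE 0.672 and adjusted p = 0.0298), *H2-Aa* at 84.1, 13.4 and 29.3 (1.80, SE 0.704, adjusted p = 0.0459) and *Cd74* at 104, 16.4 and 38.2 (1.69, SE 0.641, adjusted p = 0.041). Each of the 3 overlapped with the *Dmrt1*+/- libraries. *Dmrt1* R111G/+ replicate 1 held the highest value of all 30 libraries for every chain gene, *Cd74*, *H2-DMb1* and *H2-DMb2*, and without it 0 members were called. Without *Dmrt1*+/- replicate 1 or 3 the count was also 0, while without *Dmrt1* R111G/+ replicate 2 it was 5. DESeq2 and a fit with a replicate block each called 1. *H2-DMa* was at 13.7, 7.2 and 8.66 CPM against 14.5, 17.9 and 16.0 (log2 fold change -0.73, adjusted p = 0.0391) and stayed inside the 2-fold limit. Between *Dmrt1* R111G/+ and *Dmrt1*-/- gonads 0 members were called, beside 27.6% of all genes called higher, with log2 fold changes of 0.21 for *Ciita* to 0.85 for *Cd74* and standard errors of 0.283 to 0.727. Of these, *H2-DMa* had an unadjusted p below 0.05 (0.76, adjusted p = 0.0383, inside the 2-fold limit). Without *Dmrt1*-/- replicate 2 or *Dmrt1* R111G/+ replicate 2, 1 member was called, and without a filter 4.

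Macrophage markers were higher in the P28 mutant gonads, while lymphocyte markers were not higher as lists against *Dmrt1*+/- testes. *Csf1r* was at 26.0 to 52.8 CPM in wild-type, 43.3 to 83.5 in *Dmrt1*+/-, 121 to 134 in *Dmrt1*-/- and 302, 120 and 150 in *Dmrt1* R111G/+ gonads. *Ptprc* was at 2.58 to 4.36, 5.27 to 7.92, 8.97 to 11.2 and 11.1 to 16.5 CPM in the same order, and the sum of the 15 macrophage markers at 541 to 792, 615 to 954, 994 to 1246 and 1021 to 2457. Of these 15, 12 rose and 1 fell against wild-type testes, 6 rose and 1 fell against *Dmrt1*+/- testes, and in *Dmrt1* R111G/+ gonads 13 rose and 1 fell. Among the risers against *Dmrt1*+/- testes were *Cd163*, a scavenger receptor, by 1.73 and 2.05 on the log2 scale in *Dmrt1*-/- and *Dmrt1* R111G/+ gonads, and *Fcgr1*, an Fc receptor, by 1.85 in *Dmrt1*-/- gonads. The gene that fell was *Aif1* (-4.13 and -2.91), at 86.5 to 296 CPM in wild-type and *Dmrt1*+/- testes and 9.39 to 28 in the mutant gonads. *Ptprc* passed the test against wild-type testes (log2 change 1.65 in *Dmrt1*-/- gonads) but against *Dmrt1*+/- testes in neither mutant (0.60 and 0.93). Of 3 T cell markers tested against *Dmrt1*+/- testes 1 rose and 2 fell in *Dmrt1*-/- gonads and 1 rose and 1 fell in *Dmrt1* R111G/+ gonads. Of 4 B cell markers 0 rose in either and 1 and 2 fell. In *Dmrt1*-/- gonads 38.7% of all genes were called lower against *Dmrt1*+/- testes. That share is not given for *Dmrt1* R111G/+ gonads, so the falls there are a description. Against wild-type testes 1 of 4 B cell markers rose and 1 fell in *Dmrt1*-/- gonads (median log2 fold change 1.26). Of 3 T cell markers 1 rose and 1 fell (median -1.24), beside 26.1% and 40.5% of all genes called higher and lower. The dendritic cell list gave 3 higher and 2 lower of 6 tested against *Dmrt1*+/- testes in *Dmrt1*-/- gonads, beside 19.8% and 38.7% of all genes. Among the higher ones was *Clec10a*, a lectin that macrophages also carry, at 2.93. The sum of the 6 B cell markers was highest in *Dmrt1* R111G/+ replicate 1 (75.3 CPM), followed by *Dmrt1*-/- replicate 1 (52.4) and *Dmrt1*+/- replicate 3 (50.5), and *Ms4a1* (CD20) had 37 counts in the last against 0 to 6 in the other P28 libraries. The part of these cells in the class II values was not tested.

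**Figure D3:**
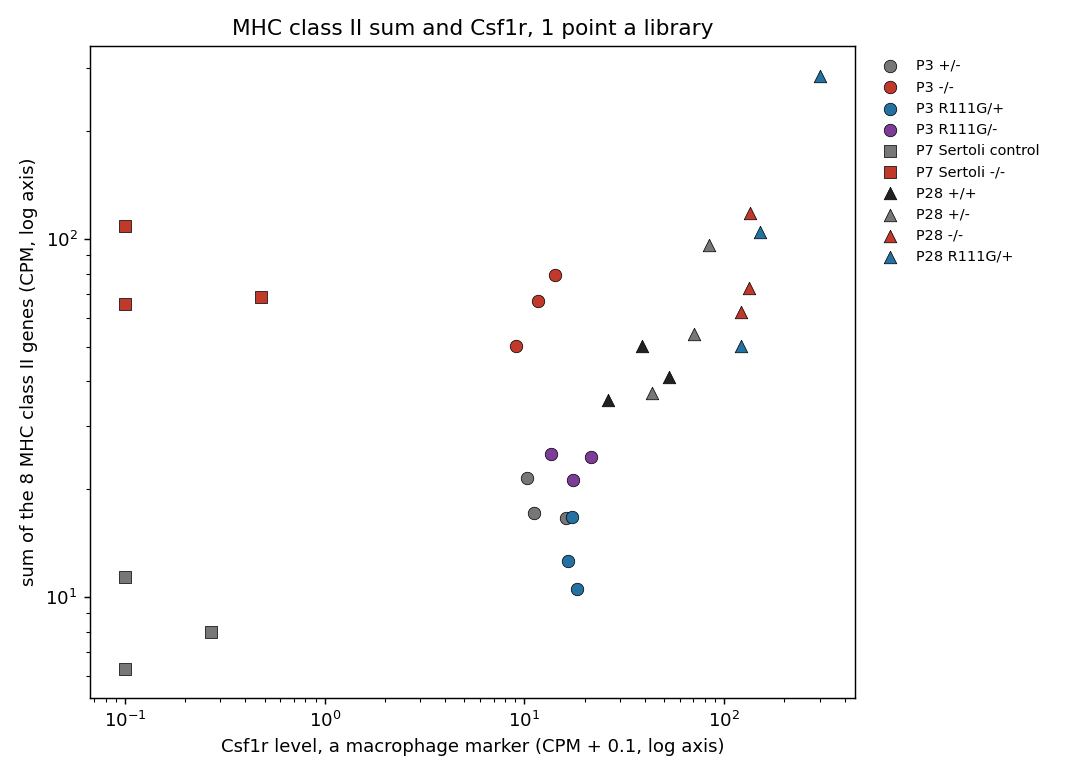
Sum of the 8 genes (CPM, log axis) against *Csf1r* (CPM + 0.1, log axis), 1 point a library, with the pair chosen after the levels had been seen. The 3 P7 *Dmrt1*-/- points stand at 65.7 to 109 CPM with *Csf1r* at most 0.383, the P3 *Dmrt1*-/- points at 50.3 to 79.2 above the other P3 gonads at similar *Csf1r*, and the P28 points climb with *Csf1r* to 286 CPM in *Dmrt1* R111G/+ replicate 1.

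The summed level of the 8 genes shows the same contrast between ages. It was 6.31 to 11.4 CPM in P7 control and 65.7 to 109 in P7 *Dmrt1*-/- Sertoli cells, and 16.6 to 21.5, 50.3 to 79.2, 10.5 to 16.7 and 21.2 to 25 CPM in P3 *Dmrt1*+/-, *Dmrt1*-/-, *Dmrt1* R111G/+ and *Dmrt1* R111G/- gonads. At P28 it was 35.4 to 50.2 in wild-type, 37.1 to 95.9 in *Dmrt1*+/-, 62.6 to 118 in *Dmrt1*-/- and 50.3 to 286 in *Dmrt1* R111G/+ gonads. Lists of the wider pathway are given beside the 19.8% and 6.72% of all genes called higher in *Dmrt1*-/- and *Dmrt1* R111G/+ gonads against *Dmrt1*+/- testes. Of 9 endosomal genes 5 were higher in *Dmrt1*-/- gonads against *Dmrt1*+/- testes, with *Ctsh* at a log2 fold change of 4.13 and *Ifi30*, the thiol reductase of the pathway, at 1.71. In *Dmrt1* R111G/+ gonads 5 were higher, with *Ctsb* at 1.38. Of 13 interferon gamma genes tested 8 and 6 were higher, with *Gbp2* at 2.48 in *Dmrt1*-/- gonads and 1.10 in *Dmrt1* R111G/+ gonads, while *Ifng* had at most 2 counts in any library. Of 7 costimulation and turnover genes 2 and 5 were higher, with *Marchf1*, the ligase that removes class II from the surface, at 1.04 and 1.42. Of the 7 promoter-bound factor genes 0 were called in either comparison, and *Creb1* was at 0.87 and 0.51, inside the 2-fold limit.

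The age of the gonad was compared within a genotype, though ages may also be separate batches of sequencing and cannot be told apart from them. In *Dmrt1*+/- gonads 4 members were higher at P28 than at P3, beside 36.6% of 21377 genes. They were *Cd74* (log2 fold change 2.64, adjusted p = 0.000768), *H2-DMa* (2.64, adjusted p = 3.64e-08), *H2-DMb1* (2.35, adjusted p = 0.000145) and *H2-Ab1* (1.88, adjusted p = 0.00172). *Ciita* fell by 1.79 on the log2 scale (SE 0.693, adjusted p = 0.0246), beside 18.9% of genes called lower, a call lost without *Dmrt1*+/- replicate 1 of either age. In *Dmrt1*-/- gonads 1 member was higher at P28, *Cd74* (2.32, SE 0.581, adjusted p = 0.00287), beside 10.8% of genes, and 1 lower, *Ciita* (-2.24, SE 0.602, adjusted p = 0.00498), beside 12.4%. No chain gene was called there, with *H2-Ab1* at -0.08, *H2-Aa* at 0.38 and *H2-Eb1* at -0.58 (standard errors 0.437, 0.575 and 0.551). In *Dmrt1* R111G/+ gonads 6 members were higher at P28, beside 28.1% of genes, with *Cd74* at 4.09 (adjusted p = 9.36e-06), *H2-Aa* at 3.97 (adjusted p = 3.41e-05) and *H2-Ab1* at 3.66 (adjusted p = 3.12e-06), and *Ciita* was at 0.56 (adjusted p = 0.465).

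Whether an effect differed between the ages was tested in 1 fit of the 24 gonad libraries. The effect of *Dmrt1*-/- against *Dmrt1*+/- was lower at P28 than at P3 for 3 members, beside 23.7% of genes. These were *H2-DMa* (difference on the log2 scale -2.36, SE 0.394, adjusted p = 3.42e-05), *H2-DMb1* (-2.13, SE 0.629, adjusted p = 0.00697) and *H2-Ab1* (-1.96, SE 0.659, adjusted p = 0.0163). That of *H2-Ab1* was lost without *Dmrt1*+/- replicate 2 of P28 or of P3 (adjusted p = 0.0643 at most). For 0 members was it higher, beside 18% of genes, and for *Cd74* the difference was -0.32 (standard error 0.843). The effect of *Dmrt1* R111G/+ was higher at P28 for *H2-Eb1* (2.78, SE 0.876, adjusted p = 0.0268) and *H2-Aa* (2.66, SE 0.911, adjusted p = 0.0398), 2 members of 7 beside 4.92% of genes. The count was 0 without replicate 1 of the P28 *Dmrt1* R111G/+ or *Dmrt1*+/- gonads or without replicate 2 or 3 of the P3 *Dmrt1* R111G/+ gonads, 1 without P28 *Dmrt1*+/- replicate 3, P3 *Dmrt1* R111G/+ replicate 1 or any 1 P3 *Dmrt1*+/- library, and 4 without P28 *Dmrt1* R111G/+ replicate 2.

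The members also differed among themselves, and the ratio of *Ciita* to *H2-Aa* was lower in every P28 library than in every younger one. Per kilobase of exon, *Ciita* stood at 0.0613 to 0.303 of *H2-Aa* within each of the 18 P3 and P7 libraries and at 0.00857 to 0.0412 of it within each of the 12 P28 libraries, and these ranges did not overlap. In P7 *Dmrt1*-/- cells the ratio was 0.197, 0.210 and 0.278, and in P28 *Dmrt1*-/- gonads 0.0272, 0.0135 and 0.0398. *Ciita* had 1, 4 and 1 counts in P28 wild-type and 2, 8 and 9 in P28 *Dmrt1*+/- testes. It had 4 in P28 *Dmrt1* R111G/+ replicate 2 and 2 in P7 control replicate 2, so the *Ciita* ratios there rest on few counts. Age cannot be told apart from batch in this ratio. *Cd74* was at a median 0.728 of *H2-Aa* in P3 *Dmrt1*-/- gonads, 1.63 in P7 *Dmrt1*-/- Sertoli cells and 2.66 in P28 *Dmrt1*-/- gonads. In *Dmrt1*+/- gonads this ratio was 0.690 to 1.94 at P3 and 2.43 to 4.86 at P28, without overlap. In *Dmrt1* R111G/+ gonads the ages overlapped, at 2.16 to 2.89 and 2.77 to 2.94. The levels themselves differed between the 3 P28 *Dmrt1* R111G/+ libraries by several fold. P28 wild-type testes, which have no P3 counterpart here, were at 2.04 to 2.59. For *Cd74* too, age cannot be told apart from batch. *H2-DMa* was at 1.88 to 6.33 of *H2-Aa* in wild-type testes and at 0.258 to 0.263 in P28 *Dmrt1*-/- gonads. In order of median level per kilobase, *H2-DMa* came first of the 8 in wild-type P28 testes (4.66 CPM per kilobase, range 4.47 to 4.76), before *H2-Ab1* (3.39, range 3.35 to 3.44) and *Cd74* (3.21, range 1.52 to 5.17), of which the last overlapped both. In P28 *Dmrt1*-/- gonads *Cd74* was first (13.6, range 12.7 to 25), above *H2-Aa* (5.33, range 4.76 to 9.03). Orders and ratios between genes rest on the annotated exon unions, 1679 bases for *Cd74* and 3798 for *H2-Aa*. Before division by length their medians in these gonads were 22.78 and 20.25 CPM. In P7 *Dmrt1*-/- cells *Cd74* (9.67, range 7.27 to 10.3), *H2-Ab1* (6.33, range 5.03 to 8.95) and *H2-Eb1* (5.12, range 5.06 to 11.8) overlapped.

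**Figure D4:**
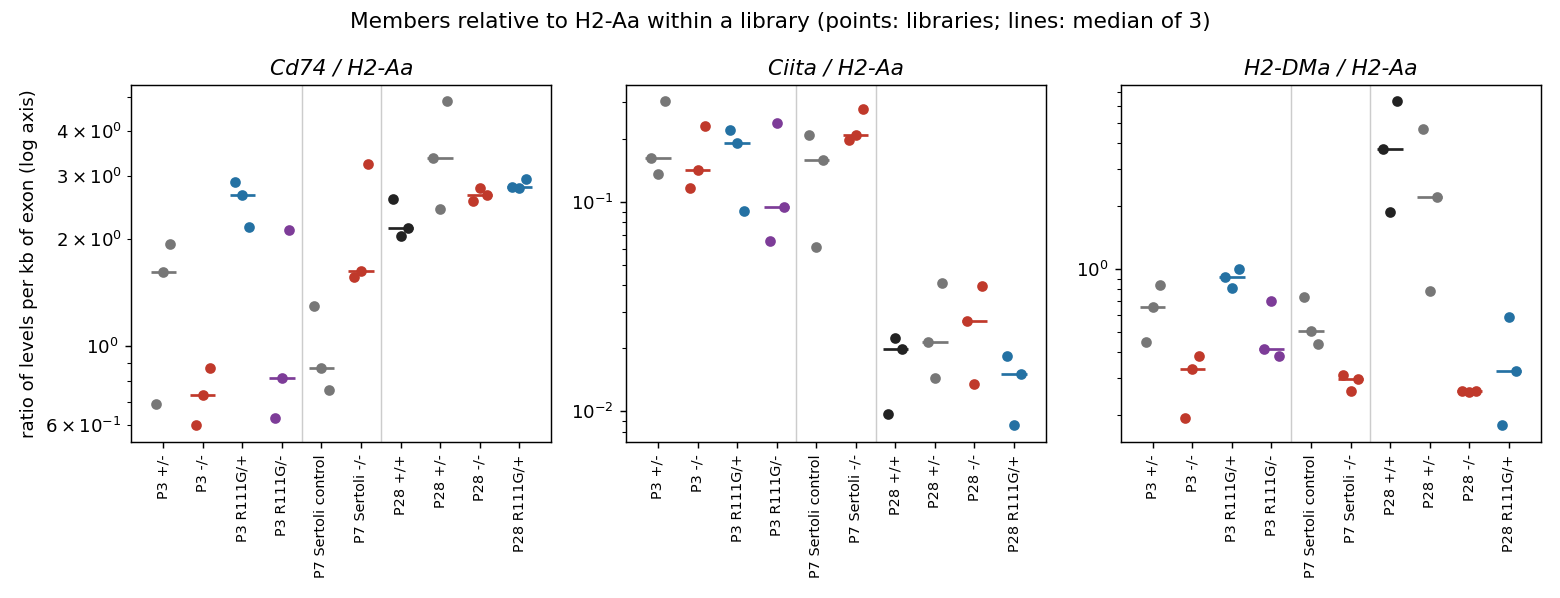
Level of *Cd74*, *Ciita* and *H2-DMa* relative to *H2-Aa* within a library, per kilobase of exon (log axis), with points for libraries and lines for the median of 3. The *Ciita* ratio lies between 0.0613 and 0.303 in P3 and P7 libraries and between 0.00857 and 0.0412 in P28 libraries.

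The genes most like the members were looked for among 15010 others with a mean of at least 1 CPM, by the correlation of log2 CPM with the mean of *H2-Aa*, *H2-Ab1* and *H2-Eb1* over the 30 libraries, which share groups, ages and tissues. The members themselves had Pearson's r of 0.85 for *Cd74*, 0.75 for *H2-DMb1*, 0.56 for *H2-DMa*, 0.54 for *Ciita* and 0.27 for *H2-DMb2*. The first of the 10 nearest others was *Rgs7bp* (r = 0.81), followed by *Unc13d* (0.81), *Arhgef6* (0.80), *Lgi4* (0.79), *Nr1h4* (0.76), *Zfp185* (0.74), *Olfr1251* (0.73), *Kcnd2* (0.73), *Adhfe1* (0.72) and *Rab32* (0.71). *Unc13d*, which acts in granule release, had medians of 6.07 and 22.7 CPM in P3 *Dmrt1*+/- and *Dmrt1*-/- gonads, 11.4 and 30.2 in P7 control and *Dmrt1*-/- Sertoli cells and 14.4 and 60.9 in P28 wild-type and *Dmrt1*-/- gonads. *Rgs7bp*, a partner of G protein regulators, had 6.44 and 12.2, 1.21 and 14.3, and 5.49 and 19.6 in the same order. By Spearman's rank correlation 6 of the 10 remained among the first 10.

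A list of enriched chromatin contacts from Hi-C of P7 *Dmrt1*-/- Sertoli cells, which gives pairs of 10 kb anchors and no score, was searched for the members. Of 4291 contacts, 1 had an anchor within a member or 10 kb of it. It joined an anchor inside *Ciita* (chromosome 16, 10510001 to 10520000) to one 240000 bases upstream (10270001 to 10280000), where the annotation holds the microRNA gene *Gm22932* and no protein-coding gene. Between the first and the last of the chromosome 17 members, from 34119541 to 34316674, 0 contacts had an anchor, and the nearest anchor to *H2-Eb1* was 1313327 bases away. The nearest anchor to *Cd74* was 13848 bases before it. A contact list of control cells was not analysed here, so no difference between genotypes was tested.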

How the data were processed

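RNA-seq was done on XY gonads (P3 and P28) and isolated P7 Sertoli cells, 3 libraries a group. Per the labels, stranded reads went through cutadapt 1.18 and Trim Galore 0.6.0 and then STAR 2.7.2a (GRCm38), and the authors deposited raw counts per gene of GENCODE M25, of which 0 columns were left unmapped to a sample. The deposited Hi-C list gives anchor positions, called by the authors on pooled P7 *Dmrt1*-/- Sertoli replicates.

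Counts were fitted in R 4.3.3 with edgeR 4.0.16 (filterByExpr, TMM factors, quasi-likelihood F test), per age for genotype and over the 24 gonad libraries for age. A gene was called at an adjusted p (Benjamini-Hochberg, all genes fitted) below 0.05 and a fold over 2. Standard errors were calculated back from the fold change and F. DESeq2 1.42.0, other scalings and filters, and leaving out libraries were alternatives. Levels are CPM with TMM factors over all 30 libraries, and lengths are exon unions of GENCODE M21. Members, gene lists, comparisons and the rule for named genes (all members; up to 4 genes of a list by smallest adjusted p in the P28 comparisons with *Dmrt1*+/-; defining markers near 0; the 10 nearest by correlation) were chosen with earlier results of these data known. Genes described for P7 and P3 beyond that rule were chosen after their values were seen. Nothing says whether replicates of a group came from separate litters, so p values measure the spread between these samples. Library pairs correlated at 0.9954 at most in log2(CPM + 1), so none was taken as a duplicate.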

Additional observations from a re-analysis of the deposited data

Results flagged for a closer look

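The effect of *Dmrt1* loss on class II genes differed between P3 and P28 by a test of the difference itself, for 3 members in *Dmrt1*-/- gonads. This was 3 of 7 members tested, beside 23.7% of all genes called lower in the same test. *H2-DMa* (-2.36 on the log2 scale), *H2-DMb1* (-2.13) and *H2-Ab1* (-1.96) each rose less, or fell, at P28, and the call of *H2-Ab1* was lost without *Dmrt1*+/- replicate 2 of either age. The effect of *Dmrt1* R111G/+ differed in the other direction for *H2-Eb1* (2.78) and *H2-Aa* (2.66), 2 of 7 members beside 4.92% of all genes. These calls held in 13 and 10 of 19 alternatives. Neither held without replicate 1 of the P28 *Dmrt1* R111G/+ or *Dmrt1*+/- gonads, or without replicate 2 or 3 of the P3 *Dmrt1* R111G/+ gonads. Of 15 macrophage markers, 6 and 13 were higher in P28 *Dmrt1*-/- and R111G/+ gonads than in *Dmrt1*+/- testes, beside 19.8% and 6.72% of all genes. At P3 0 of 13 macrophage markers tested passed in either, and their part in these differences was not tested.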

How the results depend on the processing

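Of 628 alternative values for the 44 member results that passed the test, 533 stayed on their side of the threshold, 93 kept their direction without passing, and 2 turned; of 975 for the 67 that did not pass, 58 passed and 2 turned with a call. The cause was not tested for any of them. Scaling by the endothelial, myoid and stromal lists changed most. In *Dmrt1*-/- gonads at P28 it left 0 members higher and 3 lower against wild type, with *H2-Aa* at -0.26, *H2-Ab1* at -1.95 and *H2-Eb1* at -0.49, and 3 lower against *Dmrt1*+/-, with *H2-Ab1* at -1.59. For P28 *Dmrt1* R111G/+ it gave 0 higher and 1 lower against *Dmrt1*+/- and 7 higher against *Dmrt1*-/-. It gave 0 at P7, 0 for P3 *Dmrt1*-/- against R111G/-, 0 lower with age in *Dmrt1*+/- and 2 in *Dmrt1*-/-, 7 lower for the age difference of the *Dmrt1*-/- effect and 0 for that of R111G/+. Without a filter, 1 member was higher in P28 *Dmrt1*-/- against *Dmrt1*+/-, 2 in *Dmrt1*+/- against wild type, 5 in R111G/+ against *Dmrt1*+/-, 4 against *Dmrt1*-/-, 4 at P3 in *Dmrt1*-/- against R111G/- and 5 for the age difference of R111G/+. Without a fold limit R111G/+ had 1 lower against *Dmrt1*+/- and 1 higher against *Dmrt1*-/-. DESeq2 called 1 in R111G/+ against *Dmrt1*+/- at P28 and 4 in P3 *Dmrt1*-/- against R111G/-. Library size alone gave 4 for the age difference of R111G/+, and all 30 libraries in 1 fit gave 1 for P3 *Dmrt1*-/- against *Dmrt1*+/- and 0 against R111G/-. Leaving out 1 library gave 0 to 2 higher in P28 *Dmrt1*-/- against *Dmrt1*+/-, 1 to 3 against wild type, 0 to 5 in R111G/+ against *Dmrt1*+/-, 0 to 1 against *Dmrt1*-/-, 1 to 4 and 0 to 2 in P3 *Dmrt1*-/- against *Dmrt1*+/- and R111G/-, 0 to 1 lower with age in *Dmrt1*+/-, and 0 to 4 for the age difference of R111G/+. Same-numbered libraries deviated together no more than others at P28 (residual r -0.394 to 0.355 against -0.301 to 0.328). The same held at P3 (-0.287 to 0.241 against -0.287 to 0.248). At P7 same-numbered libraries were at -0.0371 to 0.505 and others at -0.428 to 0.147. Pairing by number at P7 was therefore not settled, and the main fit held no term for it. A replicate block left 1 of 3 members called in P28 R111G/+ against *Dmrt1*+/-. By Spearman's correlation 6 of the 10 nearest genes remained. Low counts limit *H2-DMb2* everywhere and *H2-DMb1* at P7.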
